A study of Mus musculus with 60 samples.

Results

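Regulatory T (Treg) cells of brown adipose tissue (BAT) were compared with those of subcutaneous adipose tissue (SAT). The comparison holds 5 of the 60 RNA sequencing libraries of the series, 2 labelled as sorted Treg cells of BAT and 3 as sorted Treg cells of SAT, chosen by the names of their columns in the gene count table. All 5 came from 8-week-old male mice of the strain B6.Foxp3.Thy1.1, labelled WT, with the treatment given as NA. In this reporter, cells that express Foxp3 carry Thy1.1 on their surface, and cells that were DAPI-negative and positive for CD45, Tcrb, CD4 and Thy1.1 were taken by sorting them a second time. The labels do not say whether animals were pooled or whether the libraries of a group came from separate animals, so the p-values here speak of the variation among libraries, part of which may be technical. A further 3 libraries of spleen Treg cells from the same strain, age and sex entered the fit only to share its estimate of spread.

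Treg cells restrain other immune cells and depend on the transcription factor Foxp3. Those that live in tissues also carry receptors and factors seldom found on recirculating Treg cells, among them the IL-33 receptor ST2 (Il1rl1), Gata3, Klrg1 and the growth factor amphiregulin (Areg), and in visceral fat the nuclear receptor Pparg. Brown fat makes heat from lipid, whereas subcutaneous fat mostly stores lipid and can take on features of brown fat.

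The 5 libraries held 4662976 to 5499065 counts, and mitochondrial genes took 0.766 to 1.07% of them. T cell genes were level across the libraries, with Cd3e at 878 to 918 CPM (counts scaled by library size and TMM factor) and Cd4 at 644 to 732, and the Treg markers were high in all 5. The BAT libraries differed more from each other (root mean square difference of log2 CPM 1.08) than from any SAT library (0.94 to 0.99), while the SAT libraries lay 0.78 to 0.82 apart. The differences between depots have to be read against that spread of the BAT pair.

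No gene passed the threshold. Of 13847 genes tested with edgeR's quasi-likelihood test, 0 had an adjusted p under 0.05 (0% of genes; the smallest adjusted p was 0.221), and 1231 had an unadjusted p under 0.05, 535 higher in BAT (3.86%) and 696 lower (5.03%). DESeq2 called 90 genes, 43 higher (0.323% of 13308) and 47 lower (0.353%), and limma-voom called 1, Hspa1a. All 90 genes had an edgeR p under 0.05 and libraries that did not overlap. Without SAT library 1, edgeR called 14 genes, 7 in each direction, among them Ccr7, Nt5e, Satb1, Zfp36, Junb and Mmp9. Without SAT library 2 it called 1, Hspa1a. The share of all genes at an unadjusted p under 0.05 also moved when a library was left out. Without SAT library 1 it was 591 higher and 616 lower of 13696 genes. The list counts below with a library left out are given without that share, so their shifts are not a result about the list alone. The libraries of the groups did not overlap for 1574 genes that were higher in BAT (11.4%) and 1709 that were lower (12.3%). Genes are therefore described by their levels in each library and their intervals, and none of them is called changed by edgeR.

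The libraries can bound differences in abundant genes but not in scarce ones. Of the 4467 genes with a mean of at least 50 CPM, 4247 (95.1%) had a 95% interval of the log2 fold change (BAT minus SAT) that lay within 1 of 0, with a median half-width of 0.38. Of the 3584 genes under 5 CPM, 3 (0.0837%) did. Over all genes the share was 48.1%, and the median log2 fold change was -0.01.

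**Figure D1:**
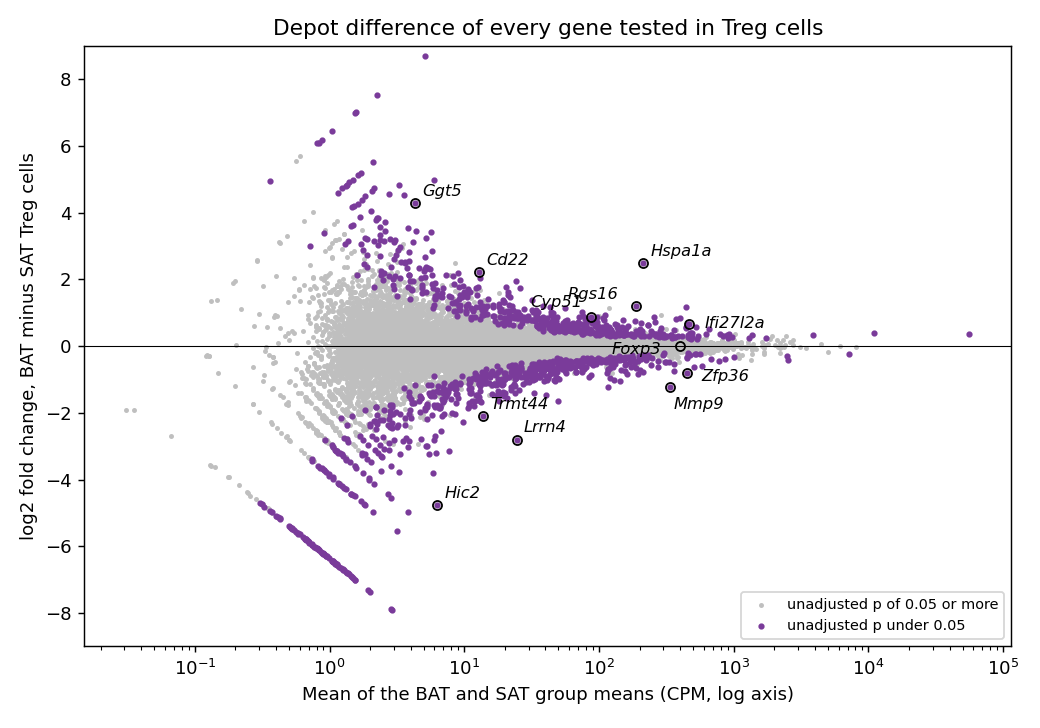
Log2 fold change (BAT minus SAT Treg cells, vertical axis) against the mean of the group means (CPM, log axis), 1 point per gene tested, 13847 in all. Purple points have an unadjusted edgeR p under 0.05 (8.89% of genes). The diagonal rows at the lower left are genes with no count in a group, whose fitted fold is set by the prior count. Hspa1a and Mmp9 lie outside the cloud at their level, and Foxp3 lies at its centre.

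Genes that define Treg cells were close in both fat depots. Foxp3 (chrX:7573644-7595245, plus strand, mm10) stood at 407 and 389.6 CPM in the BAT libraries and at 391, 442 and 373 in the SAT libraries. Its groups overlapped, and the log2 fold change was -0.01 ± 0.12 (SE; 95% interval -0.26 to 0.24). Ctla4, the inhibitory receptor that Treg cells use against antigen-presenting cells, gave -0.05 (-0.39 to 0.30). Ikzf2, which encodes the factor Helios, gave -0.10 (-0.34 to 0.15). Il2ra, the IL-2 receptor chain CD25, lay at 309 and 315 CPM in BAT, just under the 332, 336 and 447 of SAT (-0.25, -0.53 to 0.03). Of 22 core Treg genes tested, 2 stood higher in BAT and 1 lower at an unadjusted p under 0.05. These shares (9.09 and 4.55%) stood against 3.86 and 5.03% of all genes, and the median log2 fold change was -0.03. The higher genes were Nt5e, the ectoenzyme CD73, and Nrp1, and the lower gene was Socs2, an inhibitor of cytokine signalling. Nt5e read 346 and 296 CPM in BAT against 255, 158 and 176 in SAT (0.71 ± 0.17, DESeq2 adjusted p = 0.0264). Without SAT library 1, 7 core genes stood higher in place of 2, and without BAT library 1 or SAT library 2, 4 stood lower in place of 1, as did 2 without SAT library 3.

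Genes of tissue Treg cells gave no common direction, with 2 of 28 higher, 2 lower and a median of -0.10. The 7.14% in each direction was near the shares of all genes, 3.86% higher and 5.03% lower. Il1rl1 stood at 233 and 201 CPM in BAT and at 201, 431 and 351 in SAT. Here SAT library 1 lay beside the BAT libraries, and the interval of the log2 fold change ran from -1.32 to 0.13. Klrg1, an inhibitory receptor of differentiated lymphocytes, was lower in both BAT libraries (381 and 248 CPM) than in every SAT library (384, 600.3 and 676), though BAT library 1 and SAT library 1 were nearly equal and the interval reached past 0 (-1.72 to 0.09). Gata3 (0.02, -0.38 to 0.42), Rora (0.24, -0.08 to 0.56), Areg (-0.45, -1.30 to 0.41) and Pparg (-0.17, -1.20 to 0.86) had groups that overlapped. For Pparg, at 13.4 to 23.1 CPM, the interval is wide, and the libraries do not show that its level was alike. The 4 members with an unadjusted p under 0.05 were Itgb8, an integrin that activates TGF-beta, and the transcription factor Nfil3, both higher in BAT, and Dgat1, an enzyme of triglyceride synthesis, and Irf4, both lower. Dgat1 read 88.6 and 86.4 CPM in BAT and 97.4, 172 and 165 in SAT (-0.72 ± 0.22). The count of lower members was 6 without BAT library 1 and 5 without SAT library 1, and that of higher members was 0 without BAT library 1 and without SAT library 3.

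**Figure D2:**
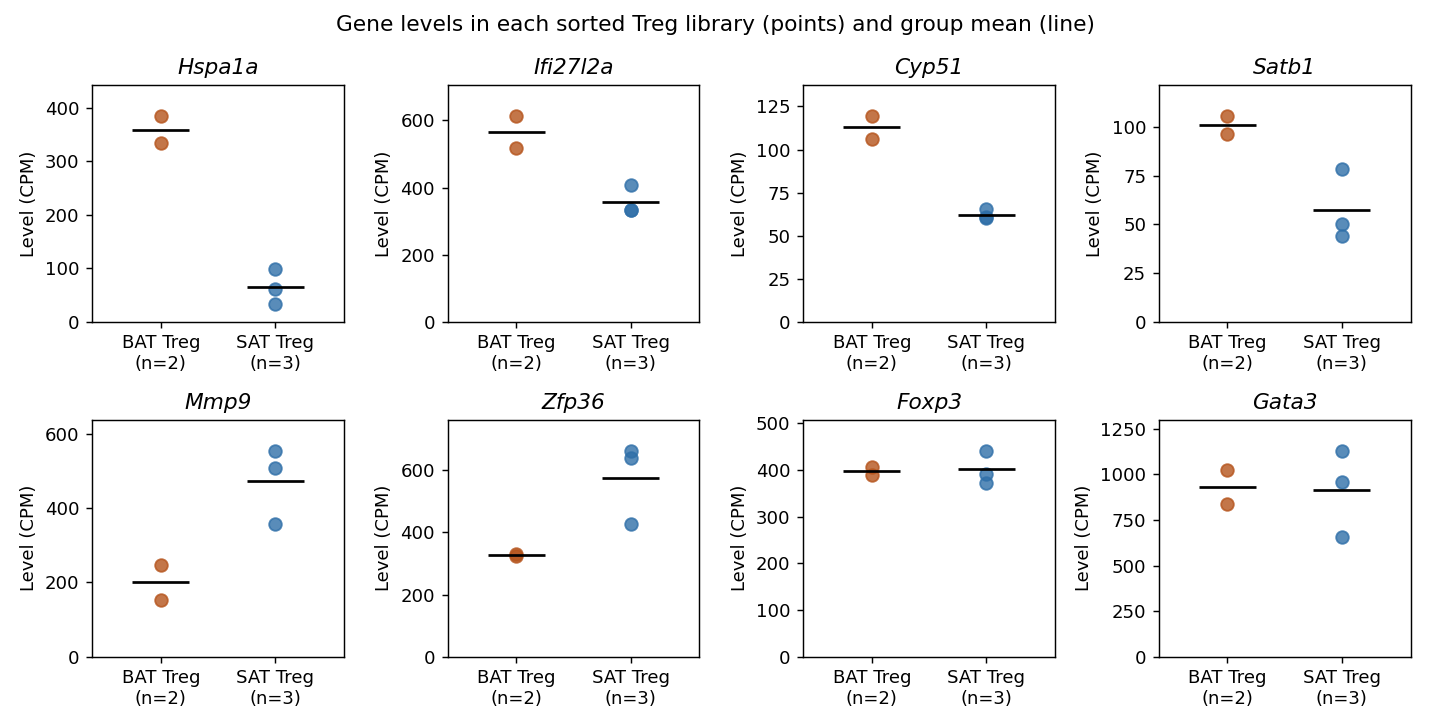
Level (CPM, vertical axes from 0) of 8 genes in each library (points, 2 BAT and 3 SAT) with the group mean (line). Hspa1a, Ifi27l2a, Cyp51 and Satb1 stand higher in both BAT libraries than in all SAT libraries, Mmp9 and Zfp36 stand lower, and Foxp3 and Gata3 overlap.

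Heat shock genes held the gene with the smallest unadjusted p of the comparison. Chaperones of this family fold or hold damaged proteins, and the factor Hsf1 switches many of them on by binding heat shock elements, inverted repeats of GAA, in their promoters. Hspa1a (chr17:34969190-34972156, minus strand), an inducible Hsp70, stood at 334 and 385 CPM in the BAT libraries. In the SAT libraries it stood at 61.0, 98.1 and 34.0. The groups were far apart, and the log2 fold change was 2.48 ± 0.33 (95% interval 1.74 to 3.23; edgeR adjusted p = 0.221). DESeq2 and limma-voom gave adjusted p of 0.00682 and 0.00033. Its neighbour Hspa1b (chr17:34956436-34959238, minus strand) encodes a nearly identical Hsp70 and stood at 31.6 and 32.0 CPM in BAT against 9.42, 15.6 and 5.95 in SAT (1.62 ± 0.46). Of the 50-base stretches of the Hspa1a transcript, 58.8% occur in that of Hspa1b too, so reads cannot all be assigned to one of them, and the handling of such reads is not given in the sources used here. An antisense gene, Gm20481, overlaps Hspa1a, and the strand setting of the counting is not given either.

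The promoters of these neighbours are shown because their counts are hard to separate and their levels had the same order over the 3 SAT libraries. Each run is the 250 bases before the start of the gene (RefSeq, GRCm38.p6), 5′ to 3′ on the gene's strand, with the core of a heat shock element (GAANNTTC, both strands searched) in capitals. The Hspa1a run is chr17:34972157-34972406 and the Hspa1b run chr17:34959239-34959488, both on the minus strand. The runs are alike at 247 of 250 positions, and the core begins 104 bases before the start in both. The promoter of Hspe1, the mitochondrial Hsp10 (chr1:55087898-55088147, plus strand), is shown as a member whose core, 84 bases before the start, lies within a full element (the core followed by NNGAA).
Hspa1a: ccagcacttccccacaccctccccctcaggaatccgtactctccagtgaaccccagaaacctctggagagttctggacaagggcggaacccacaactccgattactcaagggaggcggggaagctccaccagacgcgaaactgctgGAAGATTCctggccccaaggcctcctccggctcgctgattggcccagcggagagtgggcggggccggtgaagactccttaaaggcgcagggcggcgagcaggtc
Hspa1b: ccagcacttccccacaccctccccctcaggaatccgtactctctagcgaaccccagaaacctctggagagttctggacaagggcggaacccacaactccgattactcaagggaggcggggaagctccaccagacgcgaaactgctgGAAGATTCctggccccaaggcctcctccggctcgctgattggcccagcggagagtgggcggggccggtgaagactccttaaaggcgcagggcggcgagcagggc
Hspe1: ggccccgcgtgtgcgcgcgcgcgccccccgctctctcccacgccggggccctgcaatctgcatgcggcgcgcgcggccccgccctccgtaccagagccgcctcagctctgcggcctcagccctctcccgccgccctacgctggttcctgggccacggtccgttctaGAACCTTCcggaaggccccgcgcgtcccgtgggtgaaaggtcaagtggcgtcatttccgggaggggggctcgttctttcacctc
Over the 32851 promoters of the table, each from 250 bases before to 50 after a start, 7.86% held the core and 0.603% the full element. Of 25 heat shock genes tested, 19 had a promoter in the table, 10 of these held the core and 5 the full element. These matches describe letters, not binding.

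Of the 25 genes of the heat shock list, 8 stood higher in BAT at an unadjusted p under 0.05 and 1 lower, against 3.86 and 5.03% of all genes, and the median log2 fold change was 0.29 against -0.01. Hsp90aa1, the inducible cytosolic Hsp90, stood at 313 and 349 CPM in BAT and at 151, 208 and 188 in SAT (0.86 ± 0.22, DESeq2 adjusted p = 0.0351). Hspa13, an Hsp70 of the endoplasmic reticulum, stood at 46.3 and 61.3 against 15.2, 26.4 and 27.9 CPM (1.21 ± 0.29). In both genes the BAT libraries lay above all SAT libraries, and SAT library 1 was the lowest of the 5. Dnajb1, the Hsp40 partner of inducible Hsp70, read 587 and 638 CPM in BAT and 189.6, 394 and 234 in SAT (1.17 ± 0.45). Hspe1 read 101 and 99.1 CPM against 76.2, 66.5 and 80.5 (0.43 ± 0.18), and Ahsa2 and Hspa4l made up the 8. Dnajb1, Hspe1, Ahsa2 and Hspa4l were named after their values were seen. The lower member was Hspa9, the Hsp70 of mitochondria, at 118 and 167 CPM in BAT and 202, 178 and 219 in SAT (-0.49 ± 0.16). The most abundant member, Hspa8, the constitutive Hsp70, had groups that overlapped (1844 and 2379 CPM against 1254, 2153 and 1764), as did the regulator Hsf1 (119 and 113 CPM against 128, 112 and 106). The count of higher members was 4 without BAT library 2 and 4 without SAT library 1, and 6 or 7 without one of the others.

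Mmp9 (chr2:164940780-164955850, plus strand), a secreted gelatinase that cuts matrix proteins, stood lower in BAT. It read 247 and 153 CPM in the BAT libraries and 356, 554 and 507 in the SAT libraries. The groups did not overlap, and the log2 fold change was -1.24 ± 0.24 (95% interval -1.75 to -0.73; edgeR adjusted p = 0.231, DESeq2 adjusted p = 0.00135). Without SAT library 1, the lowest of its group, edgeR's adjusted p was 0.0466. Mmp9 was the only one of 20 matrix proteases and inhibitors tested with an unadjusted p under 0.05, and the list's median was 0.02. That share, 5% lower and 0% higher, was near the 5.03% lower and 3.86% higher of all genes. Without BAT library 2, 4 members stood lower and 1 higher, without BAT library 1, 2 stood lower, and without SAT library 1, 1 stood higher. Neutrophils also make Mmp9. Of 16 neutrophil genes listed, 7 had 0 counts in all 5 libraries, among them S100a8, S100a9, Retnlg and Ly6g. Of the others, Ltf had 13 counts in BAT library 1 and 5 in SAT library 3, Mpo had 7 in BAT library 1, and Mmp8 had 4 in BAT library 1 and 5 in SAT library 2. Only Il1r2, which Treg cells also express, passed the filter on low counts, and its groups overlapped (52.0 and 44.3 CPM in BAT, 19.8 to 111 in SAT). The level summed over the list was 57.7 and 45.2 CPM in BAT and 112, 21.1 and 23.2 in SAT, most of it from Il1r2.

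Ifi27l2a (chr12:103442167-103443680, minus strand), an interferon-induced gene, stood higher in BAT. Its level was 518 and 614 CPM in the BAT libraries and 334, 334 and 407 in the SAT libraries. Again the groups did not overlap (0.66 ± 0.12, 95% interval 0.41 to 0.91; edgeR adjusted p = 0.221, DESeq2 adjusted p = 0.00182). The other type I interferon genes did not share this direction. Of 46 tested, Ifi27l2a among them, 4 with it stood higher (8.7%) and 5 lower (10.9%) at an unadjusted p under 0.05. The median was -0.04. Over all genes the shares were 3.86 and 5.03%. Higher in BAT were also the 2'-5' oligoadenylate synthetase Oas2 (10.5 and 8.28 against 2.78, 2.95 and 0.744 CPM), Slfn1 and Irf7, a factor that amplifies interferon production (0.45 ± 0.16). Lower were the antiviral GTPase Mx1 (4.45 and 8.06 against 12.0, 12.2 and 24.0 CPM), Samd9l, Slfn8, the RNA sensor Ddx58 and Ifi35. Of 29 genes induced by interferon gamma, 0 stood higher and 5 lower (17.2%, against 5.03% of all genes), with a median of -0.17. These were Igtp, Gbp9, the class I MHC gene H2-K1, its regulator Nlrc5 and the immunoproteasome subunit Psmb9. Igtp, a GTPase that acts against intracellular parasites, read 258 and 208 CPM in BAT and 308, 349 and 293 in SAT (-0.44 ± 0.14). The count of lower interferon gamma genes depended on which BAT library was left out, and it was 3 without any 1 of the SAT libraries. With 1 of the 5 fat libraries left out, the median of this list ran from -0.30 to -0.06. Of the type I genes, 2 stood lower without SAT library 3 and 3 without BAT library 2, and 6 or 7 stood higher without BAT library 1, SAT library 2 or SAT library 3.

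Genes of cholesterol and lipid synthesis and of lipid uptake leaned toward BAT. The enzymes among them build cholesterol and lipids from acetyl-CoA, and SREBP factors drive many of these genes. The list also holds genes that are not such enzymes, among them the LDL receptor, Srebf1 and Srebf2. Of 24 tested, 7 stood higher (29.2%) and 0 lower at an unadjusted p under 0.05, against 3.86 and 5.03% of all genes. A positive log2 fold change was found for 23, and the median was 0.27. Cyp51 (chr5:4081145-4104746, minus strand), the lanosterol demethylase, stood at 119.6 and 106 CPM in BAT and at 65.5, 60.8 and 60.5 in SAT (0.86 ± 0.15; edgeR adjusted p = 0.221, DESeq2 adjusted p = 0.00182). Another gene, Akap9, overlaps it on the other strand. Both groups were tight, and they lay well apart. Hmgcs1, an early synthase of the sterol pathway, stood at 119 and 81.2 CPM against 54.8, 40.9 and 52.3 (1.02 ± 0.23). Fasn, the fatty acid synthase, stood at 142 and 183 CPM in BAT and between 99.2 and 107 in the SAT libraries (0.67 ± 0.14). Sc5d, a late enzyme of the same pathway as Cyp51, read 142 CPM in both BAT libraries and 79.8, 91.4 and 113 in SAT (0.58 ± 0.17). Fdft1 (squalene synthase), Fdps and Scd2 made up the 7 and were named after their values were seen. The LDL receptor had groups that overlapped, and stood at 192 CPM in BAT library 1 and between 41.1 and 88.2 in the other four. The count of higher members was 5 without BAT library 1 or SAT library 2, 9 without BAT library 2 or SAT library 1, and 7 without SAT library 3.

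The promoter of Hmgcs1 is shown because it is the only one that held a sterol regulatory element (TCACNCCAC, both strands, a motif chosen after the values were seen) among the 14 genes of this list with an entry. Over all 32851 promoters, 1.24% held it. The run is chr13:119690101-119690350 (plus strand, RefSeq, GRCm38.p6), the 250 bases before the start, 5′ to 3′, with the element in capitals, beginning 137 bases before the start.
Hmgcs1: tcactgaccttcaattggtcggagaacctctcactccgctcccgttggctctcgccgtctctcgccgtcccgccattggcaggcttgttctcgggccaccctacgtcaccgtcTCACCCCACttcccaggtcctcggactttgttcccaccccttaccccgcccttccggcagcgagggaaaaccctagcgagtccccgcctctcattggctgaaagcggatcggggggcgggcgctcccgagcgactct

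Genes of naive and recirculating T cells leaned toward BAT. Their products keep T cells moving between blood and lymphoid organs or mark cells that have not met antigen. Of 18 tested, 5 stood higher (27.8%) and 0 lower at an unadjusted p under 0.05, against 3.86 and 5.03% of all genes. All 18 had a positive log2 fold change, and the median was 0.42. Satb1, a chromatin organiser, stood at 96.3 and 106 CPM in BAT and at 78.3, 50.2 and 43.9 in SAT (0.81 ± 0.21, DESeq2 adjusted p = 0.0458), so that SAT library 1 lay between the BAT libraries and the rest. Txk, a T cell kinase, had the same order (128 and 113 CPM against 92.0, 61.4 and 65.5; 0.73 ± 0.17). S1pr1, the receptor that leads T cells out of tissues and nodes, read 549 and 539 CPM in BAT and 348, 416 and 489 in SAT (0.38 ± 0.13). Il6ra was higher too (0.56 ± 0.21). Ccr7, a lymph node homing receptor, stood at 359 and 374 CPM in BAT, 409 in SAT library 1, and 193 and 168 in the other SAT libraries. Without SAT library 1, 10 of the 18 stood higher, and 4 did without SAT library 2 or SAT library 3. Some of these genes are also expressed by B cells, whose summed markers were 1207 and 1202 CPM in BAT and 824 to 1121 in SAT. Most of that sum was Ighm (753 to 1031 CPM), whose groups overlapped, so the sum understates the other members. Of 14 B cell markers tested, 8 stood higher in BAT and 0 lower at an unadjusted p under 0.05. The part of B cells in the values of this list was not tested.

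Chemokine receptors, which steer cells into and within tissues, split in direction. Of 19 tested, 4 stood higher in BAT (21.1%) and 2 lower (10.5%), against 3.86 and 5.03% of all genes. The lower genes were Ccr1 (10.5 and 9.17 CPM in BAT, 25.7, 31.4 and 24.0 in SAT; -1.45 ± 0.43) and Ccr3 (81.1 and 58.6 CPM against 101, 205 and 185; -1.23 ± 0.37), receptors that share the ligand Ccl5. Gpr15, a homing receptor of T cells in the large intestine, stood at 71.6 and 98.2 CPM in BAT and at 47.3, 59.9 and 56.6 in SAT (0.64 ± 0.21). S1pr1 and S1pr4 were higher too. The fourth, Xcr1, is a receptor of cross-presenting dendritic cells and read 29.5 CPM in BAT library 1 but 9.40 in BAT library 2, against 4.85 to 6.32 in SAT. Without BAT library 1 the counts were 1 higher and 4 lower, and without SAT library 1 they were 6 and 4.

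**Figure D3:**
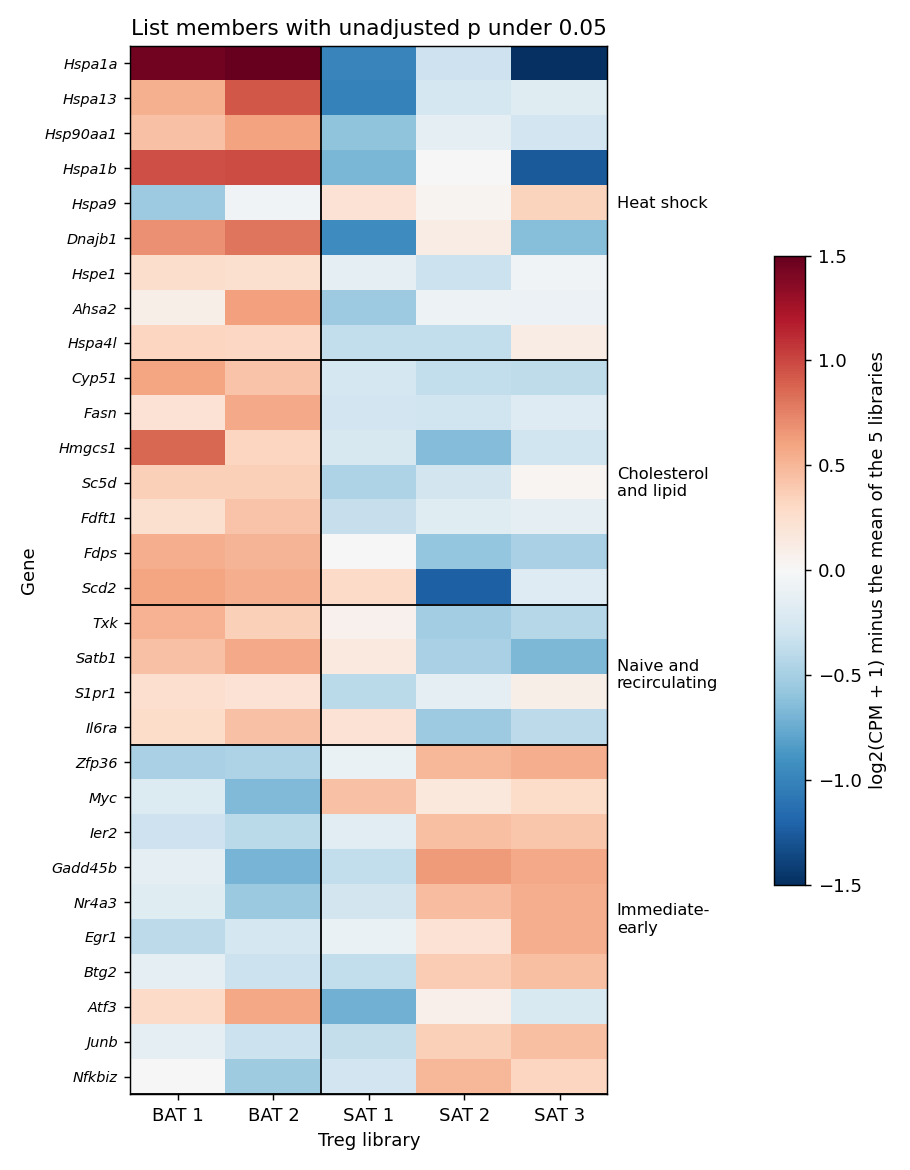
Genes given here with an unadjusted p under 0.05 of 4 lists (rows) in the 5 libraries (columns), as log2(CPM + 1) minus the mean of the 5 libraries. The colour scale ends at 1.5 in each direction, and Hspa1a runs past it. SAT library 1 is the lowest of the 5 for Hspa13, Hsp90aa1 and Dnajb1, SAT library 3 for Hspa1a and Hspa1b, and SAT library 1 lies with the BAT libraries for most immediate-early genes.

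Immediate-early genes are switched on within minutes of a stimulus, and their products include AP-1 factors and proteins that destroy mRNA. Of 29 tested, 9 stood lower in BAT (31%) and 1 higher (3.45%) at an unadjusted p under 0.05, with a median of -0.32. Over all genes the shares were 5.03% lower and 3.86% higher. Zfp36 (chr7:28376784-28380253, minus strand), the mRNA-decay factor tristetraprolin, stood at 325 and 329.6 CPM in BAT and at 426, 641 and 664 in SAT (-0.82 ± 0.17; edgeR adjusted p = 0.233, DESeq2 adjusted p = 0.00684). Myc, a growth-promoting transcription factor, stood at 129 and 93.3 CPM against 201, 166 and 179 (-0.71 ± 0.16, DESeq2 adjusted p = 0.0205). Ier2 read 413 and 387 CPM against 456, 698 and 684 (-0.62 ± 0.22). Gadd45b, a stress sensor, read 326 and 219 CPM in BAT and 275, 557 and 530 in SAT, so that SAT library 1 fell between the BAT libraries. The one higher gene was Atf3, a stress-induced factor (43.1 and 53.0 CPM against 21.0, 36.9 and 30.0; 0.71 ± 0.31). The level summed over the list was 14400 and 12970 CPM in BAT and 10920, 18530 and 18150 in SAT, and so lowest in SAT library 1. Without that library 13 members stood lower. Without SAT library 2 or SAT library 3, 2 did, without BAT library 2, 3 did, and without BAT library 1, 5 did.

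Cytokine and growth factor genes leaned toward SAT, with 6 of 19 tested lower in BAT, 0 higher and a median of -0.45. The lower share, 31.6%, stood against 5.03% of all genes. Il5, the eosinophil growth factor, had 0 counts in both BAT libraries and 62, 8 and 14 in the SAT libraries. A floor of 3 counts over the BAT group is 0.319 CPM, and the pooled SAT level of Il5, 5.68 CPM, was 17.8 times that floor. That ratio is not a bound, since it leaves out the spread among the SAT libraries (13.3, 1.69 and 2.60 CPM). Most of the SAT counts came from library 1. Tnf stood at 151 and 81.4 CPM in BAT and at 172, 214 and 195 in SAT (-0.74 ± 0.29). Tgfb1, a suppressive cytokine, stood at 22.1 and 25.7 CPM against 40.2, 33.3 and 47.6 (-0.76 ± 0.26). Lif, Tnfsf14 and Csf1 made up the 6, and the last pair was named after its values were seen. Il10, the other main suppressive cytokine of Treg cells, had groups that overlapped (48.6 and 28.2 CPM against 30.6, 50.6 and 84.5). Without SAT library 3, 0 members passed, without SAT library 2, 3 did, and without BAT library 2, 4 did. Of 20 effector genes of type 1 T and NK cells, 0 passed in either direction, and the median was 0.00. Without BAT library 1 or SAT library 1, 3 stood lower, without BAT library 2, 2 stood lower and 2 higher, and without SAT library 2, 1 stood higher, with medians from -0.46 to 0.14. Among them, Ifng stood at 32.6 and 26.2 CPM in BAT and at 23.1, 59.7 and 32.2 in SAT.

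**Figure D4:**
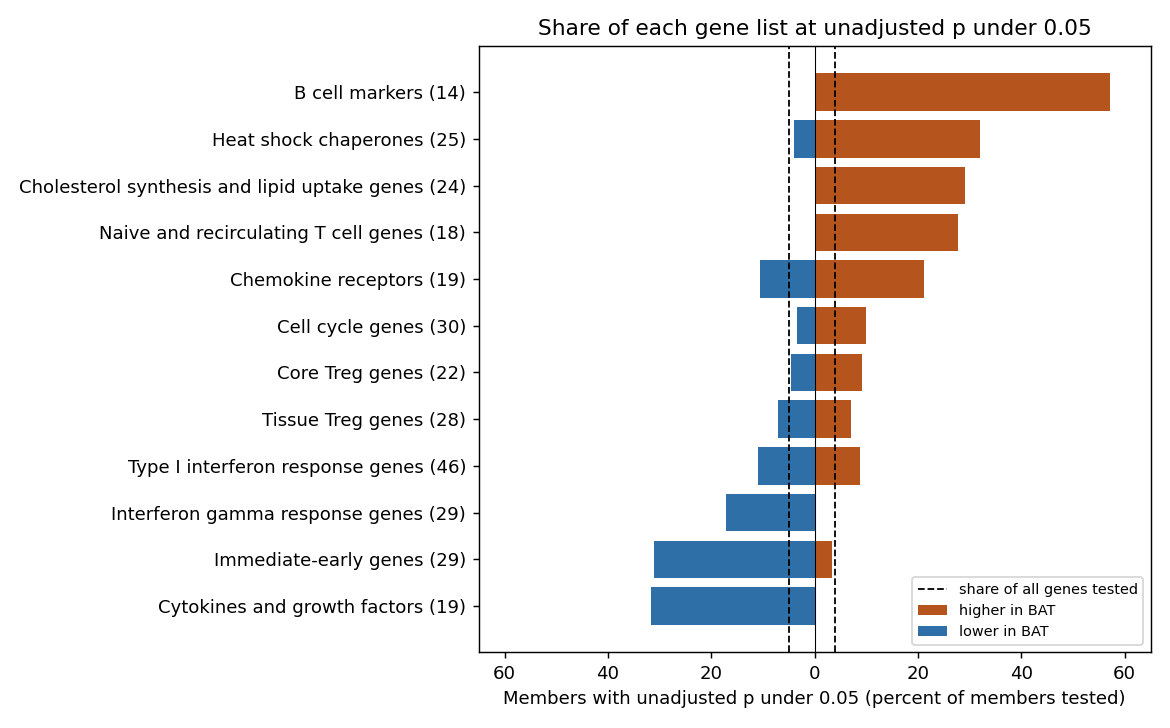
Percent of the members tested (number in brackets) with an unadjusted p under 0.05, higher in BAT to the right and lower to the left. The dashed lines mark the same share over all 13847 genes, 3.86% higher and 5.03% lower. Of the lists shown, B cell markers, heat shock, cholesterol and lipid, and naive T cell genes reach furthest to the right. Cytokine and immediate-early genes reach furthest to the left.

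Further genes with the smallest unadjusted p came from no single list. Rgs16 (chr1:153740349-153745468, plus strand), which shuts off G protein signalling, stood at 293 and 234.5 CPM in BAT and at 148, 111 and 86.3 in SAT (1.20 ± 0.24, DESeq2 adjusted p = 0.00373). Pde4b, a phosphodiesterase that breaks down cAMP, stood at 160 and 171 CPM against 97.8, 109 and 113 (0.63 ± 0.14). Ass1, an enzyme of arginine synthesis, stood at 272 and 292 CPM against 185, 166 and 199 (0.62 ± 0.12). Ggt5, which cleaves glutathione conjugates, was low in all libraries but stood at 8.50 and 8.06 CPM in BAT and at 0.214, 0.422 and 0.558 in SAT (4.28 ± 0.83). The sodium pump subunit Atp1b3 (0.51 ± 0.10) and Ripor2 (0.56 ± 0.11) were abundant genes with small differences. Also higher by this order were Epb41l2, Zfp568, Cmah, Crlf3 and Rasa3, with log2 fold changes from 0.54 to 2.05.

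On the lower side, the first of the genes chosen by this order was Trmt44 (chr5:35556203-35575070, minus strand), a tRNA methyltransferase, which read 5.26 and 5.15 CPM in BAT and 20.1, 22.8 and 24.6 in SAT (-2.11 ± 0.37, DESeq2 adjusted p = 0.00135). Wdr4, a subunit of another tRNA methyltransferase, read 16.8 and 12.8 CPM against 43.4, 30.8 and 35.5 (-1.30 ± 0.25). Rcl1, which acts in ribosomal RNA maturation, read 19.6 and 23.0 CPM against 72.5, 50.4 and 54.3 (-1.47 ± 0.28). The repressor Hic2 was nearly absent from BAT (0.607 and 0.224 CPM) and stood at 13.3, 15.6 and 7.81 in SAT. The leucine-rich repeat protein gene Lrrn4 read 7.89 and 4.25 CPM in BAT and 36.8, 46.0 and 45.6 in SAT (-2.81 ± 0.61). P2rx7, an ATP-gated channel, read 170.0 and 136 CPM against 215, 281 and 255 (-0.71 ± 0.14). Slamf7, a receptor of the SLAM family, read 2.63 and 0.448 CPM against 8.35, 18.6 and 15.1 (-3.14 ± 0.64). H2-Q5 (-0.67 ± 0.13) is annotated as a polymorphic pseudogene with close MHC relatives, so its count is uncertain. Cyclin D2 (Ccnd2, -0.40 ± 0.09), Tdrp, Rassf7, Exoc8 and Gsn completed the 15.

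Markers of other cell types differed in level between libraries. Of 14 B cell markers tested, 8 stood higher in BAT (57.1%, against 3.86% of all genes) and 0 lower, with a median of 1.76. Cd22, an inhibitory receptor of B cells, had 104 and 96 counts in BAT and 16, 41 and 9 in SAT, and Ebf1, a B cell factor, had 75 and 35 against 0, 5 and 0. Not every defining marker followed, since Ms4a1 had 103 and 21 counts in BAT and 5, 9 and 30 in SAT, so that its groups overlapped. The level summed over the list was 1207 and 1202 CPM in BAT and 1121, 824 and 881 in SAT, most of it from Ighm (753 to 1031 CPM). The count was 4 without BAT library 1, and 6 to 8 without one of the others.

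Dendritic cell markers were high in BAT library 1 and SAT library 3 (736 and 757 CPM summed) and lower in the other libraries (89.7 to 189). Most of each sum came from the class II MHC genes H2-Aa, H2-Ab1 and H2-Eb1 and from Cd74, which are not limited to dendritic cells. H2-Ab1 alone read 224 CPM in BAT library 1 and 264 in SAT library 3. Xcr1 and Zbtb46 read 6.32 and 10.4 CPM in SAT library 3, near the 5.99 and 10.1 of SAT library 1. Flt3 had 82 counts in BAT library 1 and 0 in BAT library 2, and Cd209a had 104 in SAT library 3. Of fibroblast genes, Col1a1 had 0 counts in both BAT libraries and 7, 16 and 24 in the SAT libraries, while Dcn was at 0 in all 5. The pooled SAT level of Col1a1 was 9.97 times a floor of 3 counts over the BAT group, a ratio that leaves out the spread among the SAT libraries. Gelsolin (Gsn), which many cell types express, stood at 28.3 and 28.0 CPM in BAT and at 60.6, 49.0 and 54.9 in SAT. Summed macrophage and monocyte markers were level (40.9 to 56.9 CPM), though single members were not. Of 13 tested, 0 stood higher and 1 lower (7.69%) in BAT at an unadjusted p under 0.05, against 3.86 and 5.03% of all genes. The lower member, Ly6c2, read 5.87 and 5.15 CPM in BAT and 8.99, 22.8 and 19.9 in SAT. Of adipocyte genes, Ucp1 had 1 count in BAT library 1 and 1 in SAT library 1, Adipoq had 7 in BAT library 1 and at most 1 elsewhere, and Cfd had 0. The part of other cells in the values above was not tested. In sorted samples that hold them, fewer cells of a type and less RNA per cell cannot be told apart.

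**Figure D5:**
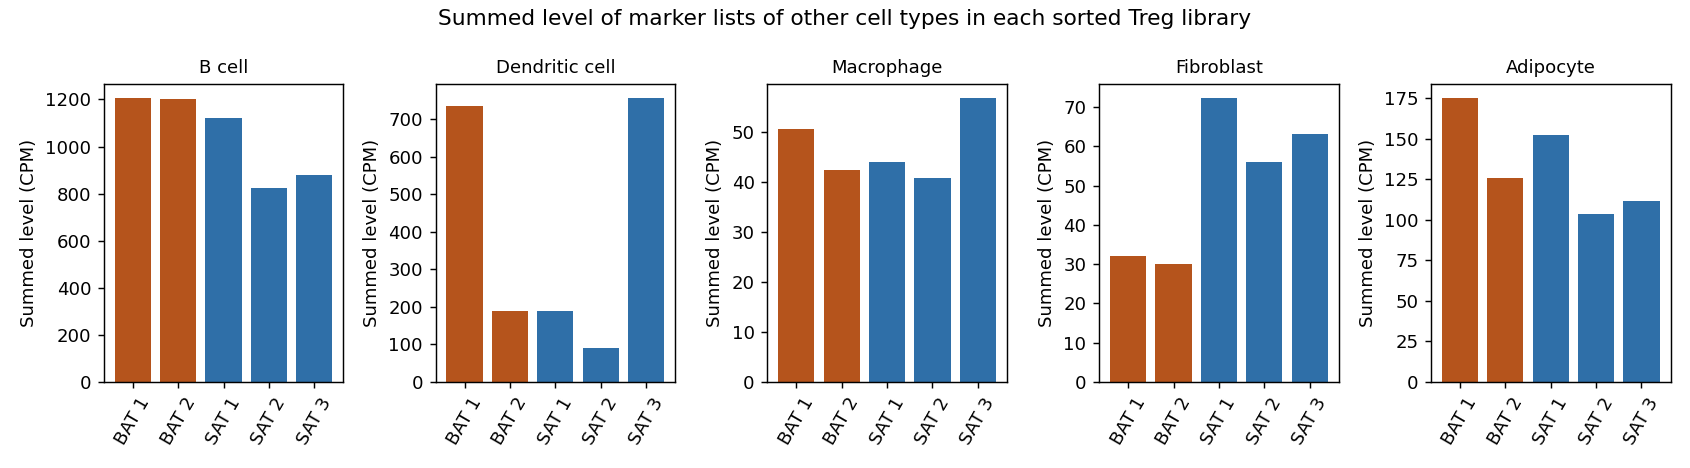
Summed level (CPM, vertical axes from 0) of the marker lists of 5 other cell types in each library, BAT in brown and SAT in blue. The B cell sum is highest in the BAT libraries and SAT library 1, the dendritic cell sum in BAT library 1 and SAT library 3, and the fibroblast sum in the SAT libraries. Most of the B cell sum is Ighm, which is highest in SAT library 1 (1031 CPM). Class II MHC genes and Cd74 make most of the dendritic cell sum, and Gsn makes most of the fibroblast sum.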

How the data were processed

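Sorted Treg cells had been lysed directly, and Smart-seq2 libraries were made from polyadenylated RNA with the Nextera XT kit, per the labels' protocols. The deposited values are counts per gene, made by the authors with STAR 2.7.3a (genome mm10) and featureCounts, per the submitters' processing notes. For the annotation release, the strand setting and reads that match several genes, settings were not given in the sources used here. Of 55011 genes in the table, 34527 had a count in the 5 fat Treg libraries.

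Counts were filtered (filterByExpr), TMM-normalized and fitted in edgeR 4.0.16 (R 4.3.3) with the robust quasi-likelihood model over 8 Treg libraries. The contrast was BAT minus SAT, with Benjamini-Hochberg adjustment over 13847 genes and a threshold of 0.05. SEs were the absolute log2 fold change divided by the root of F. DESeq2 1.42.0, limma-voom (limma 3.58.1), other scaling, filters, sets of libraries and a replicate block were alternatives. The procedure was tested on simulated data. No pair of fat libraries was a near copy (chi-square 7.53 to 16.6 per degree of freedom, genes with 20 or more counts).

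Genes named whatever their values were Foxp3, Il2ra, Ctla4, Ikzf2, Pparg, Il1rl1, Gata3, Rora, Areg, Klrg1, Hspa1a, Mmp9 and Ifi27l2a. Added were the 15 per direction with the smallest unadjusted p, no overlap and 5 CPM or more in the higher group, up to 10 per direction by DESeq2, and up to 4 members of each of 36 lists. Where a list count of the main fit is 5 or fewer its genes are named, apart from genes left out of this text. Counts with a library left out are given without names. Predicted genes, ribosomal genes and receptor segments were left out. The members and lists were chosen with earlier results of these data known. Positions come from GENCODE M21, promoters from RefSeq (GRCm38.p6). Results for some genes are left out of this text, though they count in the totals. Raw reads were not analysed here.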

Additional observations from a re-analysis of the deposited data

How the results depend on the processing

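The count of 0 genes past an adjusted p of 0.05 depended on the procedure. DESeq2 called 90, limma-voom 1, and edgeR without a filter on low counts 136 (59 higher and 77 lower in BAT). RLE size factors, a filter at 5 CPM, a fit without spleen and a fit that was not robust each gave 0. Leaving out 1 library at a time gave 0 to 14 genes, with 14 when SAT library 1 was left out and 1 (Hspa1a) when SAT library 2 was. Genes at an unadjusted p under 0.05 numbered 994 to 1801 when 1 library was left out and 2264 (1124 higher and 1140 lower) without the filter. With the replicate number as a block, edgeR called 1 gene, Hspa1a (log2 fold change 2.21, adjusted p = 0.0448), and 958 had an unadjusted p under 0.05. The numbers were not taken as pairs, since the deviations of same-numbered fat libraries correlated at -0.05 and -0.02. Signs turned for 6 genes. With the replicate block these were Ctla4 (0.013), Pparg (0.087) and Areg (0.028, against -0.45 without it). With 1 library left out, log2 fold changes ran from -0.064 (without SAT library 3) to 0.061 (without SAT library 2) for Foxp3, from -0.35 to 0.19 (without BAT library 1 and 2) for Ctla4, from -0.27 to 0.045 (the same) for Ikzf2, from -0.58 to 0.14 (without BAT library 2 and 1) for Pparg and from -0.17 to 0.20 (without SAT library 1 and 3) for Gata3. The other 102 genes given with a direction or a fold change kept their direction in each of the 16 alternatives that tested them. Many of these genes had been chosen for a small p or for groups that did not overlap, and the alternatives reuse the same counts. For such genes a kept direction was largely fixed by the choice, so it is not separate support. The cause of the shifts above was not tested. With 2 BAT libraries that differed more from each other than from SAT in log2 CPM, differences in scarce genes could not be bounded.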

Other observations

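Cell cycle genes as a list stood highest in BAT library 2, though not every member did. Of 30 tested, 3 stood higher in BAT at an unadjusted p under 0.05 (Ccnb2, Birc5 and Cenpe) and 1 lower (Mcm2). These shares (10 and 3.33%) stood against 3.86 and 5.03% of all genes, and the median log2 fold change was 0.37. The level summed over the list was 1455 and 2314 CPM in BAT and 1942, 1357 and 1557 in SAT, so that the BAT libraries were the second lowest and the highest of the 5. Without BAT library 1, 12 stood higher and 0 lower, and without BAT library 2, 1 stood higher and 6 lower. Without SAT library 1, 7 stood higher. Birc5, which encodes the mitotic protein survivin, read 38.0 and 54.8 CPM in BAT and 22.5, 26.4 and 16.9 in SAT (1.08 ± 0.34). Ccnb2 was highest in BAT library 1, at 91.5 and 62.7 CPM in BAT and 43.7, 27.2 and 34.2 in SAT (1.14 ± 0.31). The replication factor Mcm2 read 113 and 123 CPM against 169, 132 and 169 (-0.41 ± 0.17).

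Of 18 circadian genes tested, 2 stood higher in BAT (Cry1 and Nfil3) and 1 lower (Per1), against 3.86 and 5.03% of all genes, with a median of 0.22. The count of higher members was 1 without BAT library 1, SAT library 1 or SAT library 3. Cry1 stood at 121 and 105 CPM in BAT and at 66.8, 67.1 and 88.2 in SAT (0.61 ± 0.18), and Per1 at 140 and 151 against 165, 248 and 247 (-0.60 ± 0.19), the groups not overlapping for either. Of 15 TNF receptor family genes tested, 1 stood higher and 1 lower, 6.67% each and near the 3.86 and 5.03% of all genes. The higher gene was Tnfrsf26 (244 and 219.7 CPM against 107, 175 and 135, log2 fold change 0.74 ± 0.19, DESeq2 adjusted p = 0.0448). The lower gene was Tnfrsf1a, a receptor of TNF (15.6 and 31.6 CPM against 44.1, 31.9 and 43.5). Without BAT library 2, 4 stood higher. Without SAT library 2, 3 stood lower, and without SAT library 1 or SAT library 3, 0 did. Of 25 genes of T cell receptor signalling, 2 stood higher, Rel and the zeta chain Cd247, and 1 lower, the phosphatase Ptpn22. These were 8 and 4% of the list, against 3.86 and 5.03% of all genes, and the median was 0.02. Without BAT library 1 the counts were 1 higher and 2 lower, and without BAT library 2 or SAT library 2, 0 stood lower. Cd247 read 383 and 399 CPM in BAT and 324, 317 and 328 in SAT (0.27 ± 0.11). None of these passed edgeR's adjusted threshold.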
